A study of Mus musculus with 6 samples.

Results

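The genes described here are 9 photoreceptor genes (Sag, Pde6a, Pde6b, Pde6g, Rom1, Gnat1, Prph2, Nrl and Crx) of the 52636 genes measured in total RNA of mouse optic nerve. They were taken by symbol from a list of rod and photoreceptor genes, and that list was drawn up because their level in the second hND6 library stood above that of the 5 other libraries. That contrast is therefore given as a description, with no test. There were 3 libraries of the hND6 group, whose eyes per the labels were injected with a lentivirus that carried a mutant human ND6 (T14484C), a mitochondrial complex I gene. The other 3 libraries were of a group labelled mCherry, after a red fluorescent protein. The treatment label differs between the groups (mutant human ND6 T14484C, and mCherry), but the text that describes the treatment is the same for both. Strain, age and animals per library are not given in the sources used here, so p-values measure only the spread between these libraries. Libraries are called hND6 1 to 3 and mCherry 1 to 3.

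Rods and cones are the light-sensing cells of the retina. Light activates an opsin in the outer segment, the G protein transducin then activates a phosphodiesterase, the fall in cyclic GMP closes cation channels, and arrestin ends the response. The cell bodies and outer segments of photoreceptors lie in the outer retina and send no axon into the optic nerve, which holds the axons of retinal ganglion cells together with oligodendrocytes, astrocytes and microglia. The transcription factors Crx and Nrl drive many photoreceptor genes, Crx through sites with a TAATCC core and Nrl through sites that hold TGCTGA.

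Upstream sequence from RefSeq (build GRCm38.p6) was found for 6 of the 9 genes, Sag, Pde6b, Rom1, Prph2, Nrl and Crx, and not for Pde6a, Pde6g and Gnat1. The sequences of Sag, Pde6b and Crx are shown as examples of genes with most of their reads in hND6 2. Prph2 and Nrl also had most of their reads there (866 and 247, against 35 and 25 in the 5 others) and are not shown. The sequence of Nrl held neither TAATC nor TGCTGA on either strand. A link between these motifs and the level in hND6 2 was not tested. That of Rom1 is shown for contrast, because Rom1 had at least 3.85 FPKM in every library. Each runs 5′ to 3′ on the gene's strand and ends before the start of the gene. Capitals mark TAATC or TGCTGA on either strand, and TAATCC, which holds TAATC, was searched as well.
Sag, chr1:87803430-87803679, plus strand: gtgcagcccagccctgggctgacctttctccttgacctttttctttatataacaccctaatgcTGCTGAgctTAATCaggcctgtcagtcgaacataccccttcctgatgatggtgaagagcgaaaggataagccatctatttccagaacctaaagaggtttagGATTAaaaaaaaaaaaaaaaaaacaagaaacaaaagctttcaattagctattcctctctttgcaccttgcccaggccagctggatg
Pde6b, chr5:108388123-108388372, plus strand: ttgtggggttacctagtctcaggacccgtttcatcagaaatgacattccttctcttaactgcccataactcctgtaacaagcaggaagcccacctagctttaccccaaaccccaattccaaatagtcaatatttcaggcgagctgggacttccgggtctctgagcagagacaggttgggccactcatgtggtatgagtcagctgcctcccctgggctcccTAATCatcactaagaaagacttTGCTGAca
Crx, chr7:15879969-15880205, minus strand: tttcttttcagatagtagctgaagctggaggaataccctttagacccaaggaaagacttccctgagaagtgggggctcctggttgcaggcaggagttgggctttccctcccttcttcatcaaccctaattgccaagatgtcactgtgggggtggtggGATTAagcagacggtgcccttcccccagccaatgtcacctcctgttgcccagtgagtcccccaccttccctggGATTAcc
Rom1, chr19:8929357-8929606, minus strand: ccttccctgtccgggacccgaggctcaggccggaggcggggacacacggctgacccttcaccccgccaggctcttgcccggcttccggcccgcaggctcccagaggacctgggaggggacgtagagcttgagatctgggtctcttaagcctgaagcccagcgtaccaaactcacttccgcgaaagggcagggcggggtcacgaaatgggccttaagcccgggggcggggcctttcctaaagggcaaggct
TAATC or its complement GATTA stood in 4 of the 6 upstream sequences (Sag, Pde6b, Prph2 and Crx), against 19.8% of 32851 RefSeq promoters over 250 upstream bases. TAATCC stood in 2 of the 6 (Sag and Crx), against 6.25% of all promoters. TGCTGA stood in 2 of the 6 (Sag and Pde6b), against 16.1% of all promoters. Such a match is a description of the letters and not of a bound site.

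The values are FPKM, fragments scaled by exon length and by the mapped reads of the library, as the authors deposited them. They came out as whole reads when multiplied by exon length, so reads are given beside them. Reads assigned to genes ran from 20253637 in hND6 2, the shallowest library, to 34758873 in mCherry 2. Glial transcripts of the labelled tissue were abundant in every library. The myelin gene Mbp stood at 2643, 2988 and 3009 FPKM in hND6 1 to 3 and at 2783, 2707 and 1818 FPKM in mCherry 1 to 3. Some libraries stood apart in other ways. The forebrain genes Camk2a and Slc17a7 stood at 44.9 and 28.0 FPKM in hND6 1 and at 143 and 113 FPKM in mCherry 3, with at most 14.4 and 6.16 FPKM in the other 4. Transcripts of ribosomal RNA genes, chosen after their values were seen, stood higher in hND6 2 than elsewhere. The mitochondrial ribosomal RNA genes mt-Rnr1 and mt-Rnr2 had 251 and 184 FPKM there, against 6.51 to 46.0 and 4.27 to 30.8 FPKM in the 5 others. Its part in the results below was not tested. In bulk tissue, fewer cells of a type and less RNA per cell cannot be told apart.

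**Figure D1:**
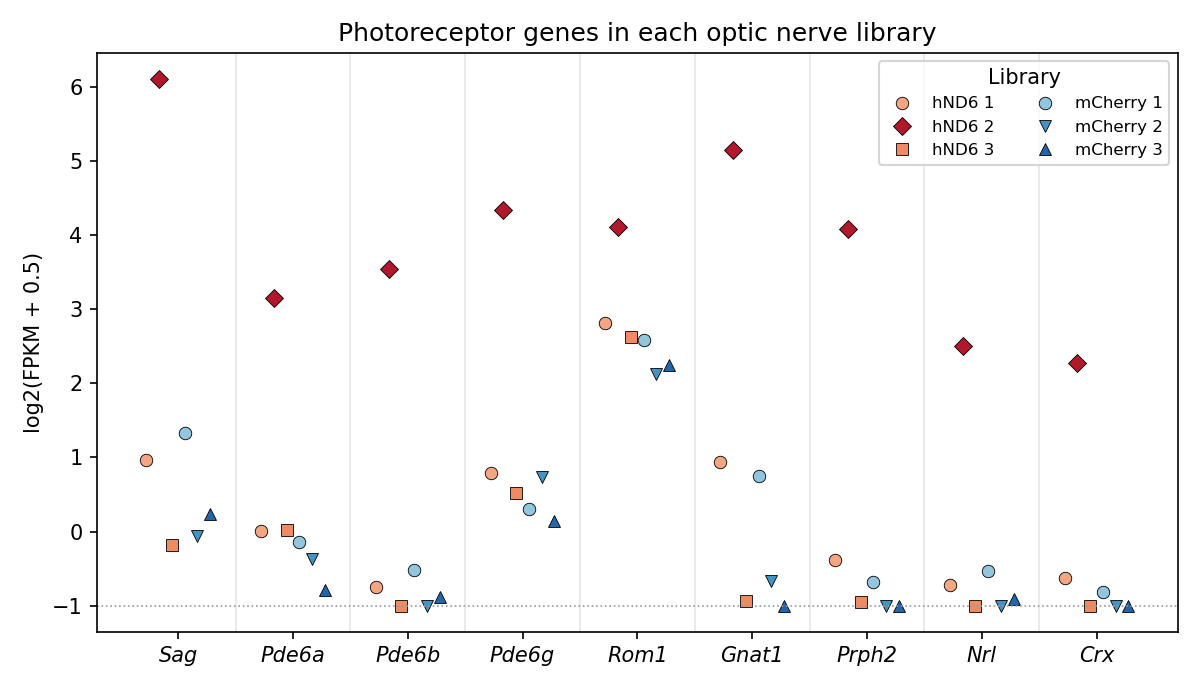
Level of the 9 photoreceptor genes in each library, as log2(FPKM + 0.5); each point is 1 library and the dotted line marks 0 FPKM. The point of hND6 2 is the highest for all 9 genes, and Rom1 is the gene whose other libraries (3.85 to 6.51 FPKM) lie nearest to it.

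All 9 genes were at their highest in hND6 2, as the choice of genes implies. Together they made up 185 FPKM and 7507 reads in hND6 2, which is 0.0371% of its assigned reads (exact binomial 95% interval 0.0362 to 0.0379%, counting error only). The sums in the other libraries were 11.7 and 7.52 FPKM in hND6 1 and 3, and 10.4, 5.89 and 5.67 FPKM in mCherry 1 to 3. With Rom1 left out, the sum was 169 FPKM in hND6 2, 5.22 in hND6 1, 1.87 in hND6 3, and 4.91, 2.03 and 1.44 in mCherry 1 to 3. After hND6 2, the libraries hND6 1 and mCherry 1, which are of different groups, held the most. Of the 9 genes, 8 were at least 4-fold above the highest other library in hND6 2. Of all 15886 genes with at least 0.5 FPKM in hND6 2, 0.888% were, and since the genes were chosen by this contrast nothing is read from the difference.

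Sag encodes rod arrestin, which binds the activated opsin and ends its signal (chromosome 1 of the mm10 build, 87803680 to 87845158, plus strand). It was the most abundant of the 9, at 68.3 FPKM in hND6 2 (2321 reads, Poisson 95% interval 65.5 to 71.1 FPKM), against 1.44 and 0.381 FPKM in hND6 1 and 3 and 2.01, 0.456 and 0.679 FPKM in mCherry 1 to 3. It had reads in every library, from 14 in hND6 3 to 105 in mCherry 1. Per mapped read, hND6 2 held 65.4 times the pooled level of the 5 others (exact 95% interval 57.5 to 74.6, counting error only).

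Gnat1 encodes the alpha subunit of rod transducin (chromosome 9, 107674474 to 107679712, minus strand). It stood at 35.0 FPKM in hND6 2 (1611 reads), against 1.42 and 0.0201 FPKM in hND6 1 and 3 and 1.17, 0.130 and 0 FPKM in mCherry 1 to 3. The ratio of hND6 2 to the pooled others was 57.0 (49.3 to 66.2). Among the other libraries, hND6 1 (113 reads) and mCherry 1 (83 reads) lay above hND6 3 (1 read), mCherry 2 (10 reads) and mCherry 3 (0 reads).

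The rod phosphodiesterase hydrolyses cyclic GMP and is built of 2 catalytic subunits, from Pde6a and Pde6b, and inhibitory gamma subunits, from Pde6g. Pde6b (chromosome 5, 108388391 to 108431743, plus strand) stood at 11.2 FPKM in hND6 2 (619 reads), against 0.0939 and 0 FPKM in hND6 1 and 3 and 0.200, 0 and 0.0417 FPKM in mCherry 1 to 3. Its ratio to the pooled others was 156 (108 to 235), and 0 reads, as in hND6 3 and mCherry 2, allow up to 0.0502 and 0.0323 FPKM at a floor of 3 reads per library. Pde6a stood at 8.43 FPKM in hND6 2 (737 reads), against 0.509 and 0.519 FPKM in hND6 1 and 3 and 0.410, 0.273 and 0.0792 FPKM in mCherry 1 to 3, a ratio of 23.5 (20.2 to 27.3). The pseudogene Rps2-ps10 lies within Pde6a on the opposite strand; the other 8 genes overlap no gene of the deposited gene table. Pde6g (chromosome 11, 120447626 to 120453500, minus strand) stood at 19.8 FPKM in hND6 2 (352 reads), against 1.23 and 0.936 FPKM in hND6 1 and 3 and 0.732, 1.17 and 0.605 FPKM in mCherry 1 to 3, a ratio of 20.6 (16.8 to 25.5). The catalytic partners therefore differed outside hND6 2: Pde6a had 9 to 77 reads in each of the 5 other libraries and Pde6b 0 to 17.

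Prph2 and Rom1 encode related tetraspanins that form the rim of outer segment discs. Prph2 (chromosome 17, 46910459 to 46924933, plus strand) stood at 16.4 FPKM in hND6 2 (866 reads), against 0.263 and 0.0176 FPKM in hND6 1 and 3 and 0.124, 0 and 0 FPKM in mCherry 1 to 3. Its ratio of 181 (129 to 262) was the highest of the 9. Rom1 (chromosome 19, 8927382 to 8929356, minus strand) stood at 16.7 FPKM in hND6 2 (504 reads), against 6.51 and 5.64 FPKM in hND6 1 and 3 and 5.51, 3.85 and 4.23 FPKM in mCherry 1 to 3, a ratio of 3.24 (2.91 to 3.60), the lowest of the 9. In hND6 2 the levels of the 2 partners could not be told apart by counting error, at 15.3 to 18.2 FPKM for Rom1 and 15.4 to 17.6 FPKM for Prph2. In the other libraries Rom1 had 166 to 340 reads and Prph2 at most 24.

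Crx and Nrl are the least abundant of the 9. Crx, a homeodomain factor of rods and cones (chromosome 7, 15865947 to 15879968, minus strand), stood at 4.33 FPKM in hND6 2 (250 reads), against 0.150 and 0 FPKM in hND6 1 and 3 and 0.0677, 0 and 0 FPKM in mCherry 1 to 3. Its ratio was 87.2 (55.8 to 143), from 21 reads in the 5 other libraries together. Nrl, a leucine zipper factor that sets rod identity (chromosome 14, 55518978 to 55524191, minus strand), stood at 5.16 FPKM in hND6 2 (247 reads), against 0.109 and 0 FPKM in hND6 1 and 3 and 0.190, 0 and 0.0321 FPKM in mCherry 1 to 3. Its ratio was 72.3 (47.9 to 114).

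Outside hND6 2 the 9 genes differed in how widely they were read. Rom1, Sag, Pde6a and Pde6g had at least 9 reads in every library. Pde6b, Prph2, Nrl and Crx had at most 3 reads in each of hND6 3, mCherry 2 and mCherry 3, and Gnat1 had 1, 10 and 0 reads there. The proportions between genes also varied. Gnat1 stood at 51.3% of the level of Sag in hND6 2, at 98.2% and 5.27% in hND6 1 and 3, and at 58.4%, 28.4% and 0% in mCherry 1 to 3. As a share of the reads of the pair, Gnat1 made up 41.0% in hND6 2 (exact binomial 95% interval 39.4 to 42.5%), 57.1% in hND6 1 (49.9 to 64.1%) and 44.1% in mCherry 1 (36.9 to 51.6%). The interval of mCherry 1 holds the share of hND6 2 and that of hND6 1 does not. Nrl stood at 7.55% of the level of Sag in hND6 2, at 7.51% and 0% in hND6 1 and 3, and at 9.46%, 0% and 4.73% in mCherry 1 to 3. Outside hND6 2 these rest on at most 14 reads of Nrl per library. Pde6g stood at 29.0% of the level of Sag in hND6 2, at 85.4% and 246% in hND6 1 and 3, and at 36.4%, 257% and 89.1% in mCherry 1 to 3.

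The comparison the design implies is hND6 against mCherry. It was fitted with limma on log2(FPKM + 0.5) over the 16157 genes that averaged 0.5 FPKM or more. The hND6 group holds hND6 2, whose level chose the 9 genes, so their values in this comparison are a description and nothing is read from their distance to other genes. None of the 9 genes passed an adjusted p of 0.05, where 0.0433% of all tested genes did. At an unadjusted limma p under 0.05 it was 0 of 9, where 2450 of the 16157 tested genes lay. With limma's voom on the reads 0 of the 9 passed, but so did 0 of all tested genes, so that count says nothing about the 9. Crx averaged 1.49 ± 2.46 FPKM in hND6 and 0.0226 ± 0.0391 FPKM in mCherry, and Sag 23.4 ± 38.9 and 1.05 ± 0.842 FPKM (SD, n = 3 each), so in hND6 the spread exceeded the mean. The log2 fold changes ran from 0.86 ± 0.39 for Rom1 to 2.02 ± 1.50 for Gnat1 (SE), with a median of 1.49 over the 9 genes and of -0.01 over all tested genes. With voom, which works on reads and adds no 0.5 FPKM, they ran from 0.87 ± 0.44 for Rom1 to 4.61 ± 4.49 for Prph2, with a median of 2.34. The groups did not overlap for 2 of the 9, Pde6a and Rom1, both higher in hND6, where 12.6% of all tested genes lay higher without overlap. All 9 passed the filter, but 5 of them (Pde6a, Pde6b, Prph2, Nrl and Crx) average under 0.5 FPKM without hND6 2.

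The same comparison was then made without hND6 2, in libraries that did not choose the genes as high. In hND6 1 and 3 against mCherry 1 to 3, 4 of the 9 genes (Sag, Pde6g, Rom1 and Gnat1) averaged at least 0.5 FPKM. None of these 4 passed, where 0.0124% of all tested genes did. At an unadjusted limma p under 0.05 it was also 0, where 1280 of the 16157 tested genes lay. With voom it was 0, as it was for all tested genes. The other 5 entered the fit only through hND6 2, so that they were not called says little. The log2 fold changes on log2(FPKM + 0.5) were 0.45 ± 0.31 for Pde6a, 0.40 ± 0.19 for Rom1, 0.31 ± 0.78 for Gnat1, 0.26 ± 0.28 for Pde6g, 0.22 ± 0.34 for Prph2 and 0.13 ± 0.32 for Crx. They were -0.04 ± 0.33 for Nrl, -0.08 ± 0.33 for Pde6b and -0.11 ± 0.56 for Sag (SE; limma adjusted p at least 0.647 for all 9). Adding 0.5 FPKM holds the values of genes near 0 close to 0. With voom they were 2.51 ± 1.80 for Prph2, 1.66 ± 1.90 for Crx, 1.23 ± 0.62 for Pde6a, 1.22 ± 2.47 for Gnat1 and 0.16 ± 1.95 for Nrl, whose sign turned. Rom1 stood at 0.47 ± 0.23 and Pde6g at 0.42 ± 0.45 with voom. Pde6b, also near 0, stayed at -0.07 ± 2.05, and Sag stood at -0.005 ± 0.90. Sag averaged 0.913 FPKM in hND6 1 and 3 and 1.05 ± 0.842 FPKM in mCherry.

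**Figure D2:**
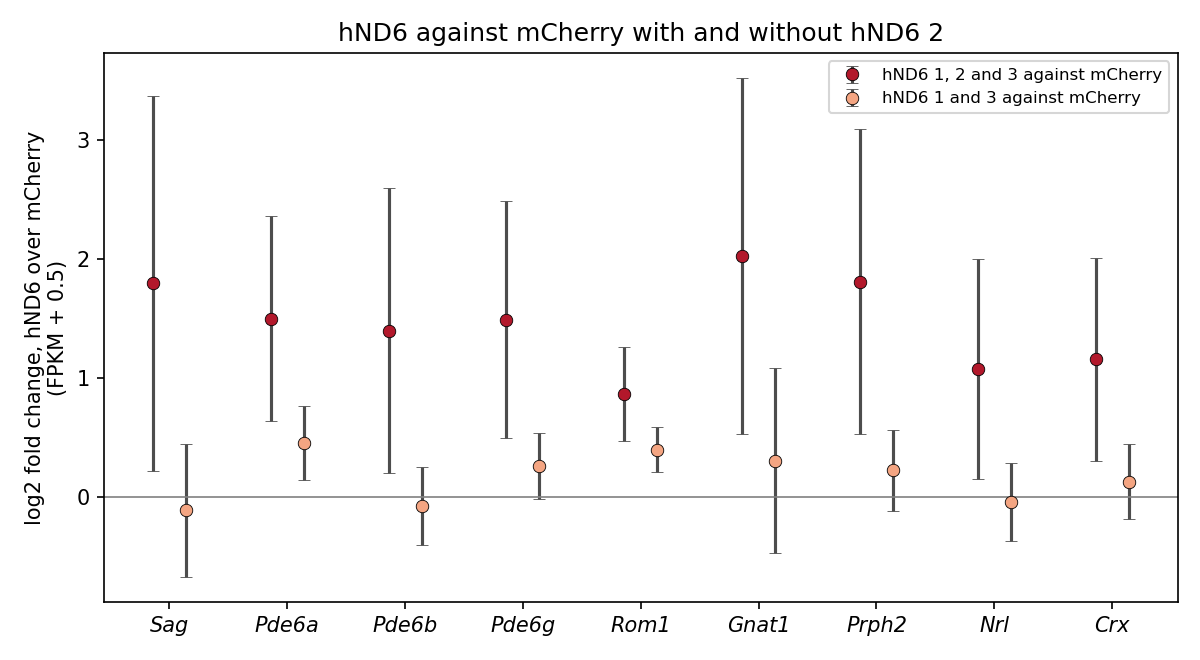
Log2 fold change of hND6 over mCherry on the log2(FPKM + 0.5) scale for each gene, with all 3 hND6 libraries (left point) and with hND6 1 and 3 only (right point); bars are SE from limma. Without hND6 2 the values lie between -0.11 and 0.45 on this scale, which would understate any change of the lowest genes.

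Further photoreceptor genes were read from a list of 42 that holds none of the 9. Of these 27 had at least 0.5 FPKM in hND6 2 and were at least 4-fold above the highest other library there, against 0.888% of all genes with at least 0.5 FPKM there; the list was drawn up with earlier results of these data known. Over all 42 the median log2 ratio of hND6 2 to the mean of the 5 others was 1.88. It was 3.82 for the 9 genes and -0.02 over all tested genes. The 6 genes of the list with the highest level in hND6 2 follow. Gnb1, a G protein beta subunit of many tissues, stood at 126 FPKM in hND6 2 against 96.4 to 111 in the others, and Gnb5 at 17.3 against 10.3 to 18.4. Unc119, a lipid-binding chaperone of transducin, stood at 11.4 FPKM in hND6 2 against 2.93 to 5.33, and Rgs9, which speeds the shut-off of transducin, at 9.90 against 2.15 to 13.3. Rbp3, the retinoid carrier between photoreceptors and pigment epithelium, stood at 9.15 FPKM in hND6 2 against 0 to 0.212, and Rcvrn, the calcium sensor recoverin, at 8.41 against 1.01 to 2.28.

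Other genes of the list are named after their values were seen, since they hold further steps of the rod pathway. The channel subunit Cnga1 stood at 4.28 FPKM in hND6 2 (232 reads) and had 6 reads in the 5 others together. The rod nuclear receptor Nr2e3 stood at 4.42 FPKM (178 reads), with 2 reads elsewhere. Grk1, the kinase of activated opsin, stood at 3.73 FPKM against at most 0.0983, and Guca1b, an activator of guanylate cyclase, at 7.00 against at most 0.477. In limma 27 of the 42 were tested and 0 passed in hND6 against mCherry, where 0.0433% of all tested genes did. Without hND6 2, 0 passed as well, where 0.0124% of all tested genes did. Several of the 27, such as Cnga1, Nr2e3 and Rbp3, averaged under 0.5 FPKM in the 5 others and were tested only through hND6 2. That they were not called says little.

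Among 12 cone genes, 9 were highest in hND6 2, some of them near 0, such as Cnga3 with 2 reads there. Only 4 of the 12 were tested genes, and of these only Arr3 was highest in hND6 2, where 14.2% of all tested genes were. Of the 8 cone genes with at least 0.5 FPKM there, 2 were at least 4-fold above every other library, where 0.888% of all such genes were. These were cone arrestin Arr3 (5.21 FPKM, 140 reads, against 0 to 0.229 FPKM) and the cone phosphodiesterase Pde6c (0.699 against 0 to 0.0504 FPKM), both named after their values were seen. The cone channel subunit Cngb3 lay 5.69-fold above the highest other library at a lower level, 0.376 FPKM (35 reads) in hND6 2 against 0 to 0.0661 FPKM. The cone opsins Opn1mw and Opn1sw stood at 1.85 and 1.64 FPKM in hND6 2 against at most 0.514 and 0.463 elsewhere. The most abundant genes of the list, Ccdc136 and the thyroid hormone receptor Thrb, stood at 18.9 and 18.6 FPKM in hND6 2, within the 18.2 to 23.5 and 13.9 to 23.1 FPKM of the others.

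Most listed genes of the other retinal cells lay near their level in the other libraries. Of 10 bipolar cell genes 1 was at least 4-fold above the others, Lrit3 (0.679 FPKM, 33 reads), which photoreceptors of the mouse also make. The bipolar genes Grm6, Cabp5 and Pcp2 had 5, 1 and 0 reads in hND6 2, and the most abundant of the list, Prkca and Vsx1, stood at 34.5 and 0.747 FPKM against 34.4 to 49.5 and 0.350 to 1.27. No gene at all reached 4-fold among 9 of Müller glia and progenitors, 10 of amacrine and horizontal cells, 8 of ganglion cells, 10 of pigment epithelium and pigment cells or 7 of lens. Of these lists, in order, 2, 6, 5, 5 and 5 genes stood under 0.5 FPKM in hND6 2. Among all genes with at least 0.5 FPKM there 0.888% reached 4-fold. A count of 0 in lists this short lies near that share, and nothing is read from these counts. The Müller and astrocyte enzyme Glul stood at 545 FPKM in hND6 2 against 439 to 533, the glutamate transporter gene Slc1a3 at 156 against 136 to 191, and the Müller retinoid carrier Rlbp1 at 7.06 against 4.66 to 9.46. Slc6a9, a glycine transporter, stood at 75.4 FPKM against 48.2 to 66.8, and Gad1, which makes GABA, at 0.919 against 1.54 to 16.9. Rbpms, which marks ganglion cells in the retina, stood at 23.9 FPKM in hND6 2 against 15.2 to 32.6, and the neuronal gene Thy1 at 8.48 against 7.65 to 69.3. The summed level of the pigment list was 15.0 FPKM in hND6 2 against 7.88 to 24.9 FPKM. Its most abundant genes, the retinol dehydrogenase Rdh5 and the transthyretin gene Ttr, stood at 4.18 and 7.18 FPKM in hND6 2 against 5.92 to 8.01 and 0.965 to 9.73. Its pigment genes Tyr, Tyrp1, Pmel and Dct had 1, 2, 17 and 23 reads in hND6 2. Pmel was the 1 gene of the 10 at its highest there, at 0.404 against 0.0928 to 0.384 FPKM, and Dct stood at 0.514 FPKM, below 0.976 FPKM in mCherry 1. The part of pigment epithelium in the results was not tested.

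The summed lists of neighbouring tissues lay within or below the range of the other libraries for lens, cornea, muscle and pineal gland. They stood at 2.80 FPKM for lens (2.43 to 3.62 in the others), at 0 for cornea and conjunctiva (0.0326 to 0.761), at 3.76 for skeletal and extraocular muscle (2.88 to 5.60) and at 0.314 for pineal gland (0.336 to 1.13), an organ that shares many photoreceptor genes. The lens genes Mip and Lim2 were at 0 reads in all 6 libraries, while Bfsp1 and Crygs stood at 1.94 and 0.643 FPKM in hND6 2 against 1.10 to 2.16 and 0.371 to 1.37. The muscle genes Tnnt3 and Mylpf stood at 2.20 and 1.52 FPKM against 1.43 to 3.46 and 0.989 to 1.37. The forebrain list summed to 11.3 FPKM in hND6 2, against 6.40 to 329 FPKM in the others, and the optic nerve glia list to 7752 against 4686 to 7823 FPKM.

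**Figure D3:**
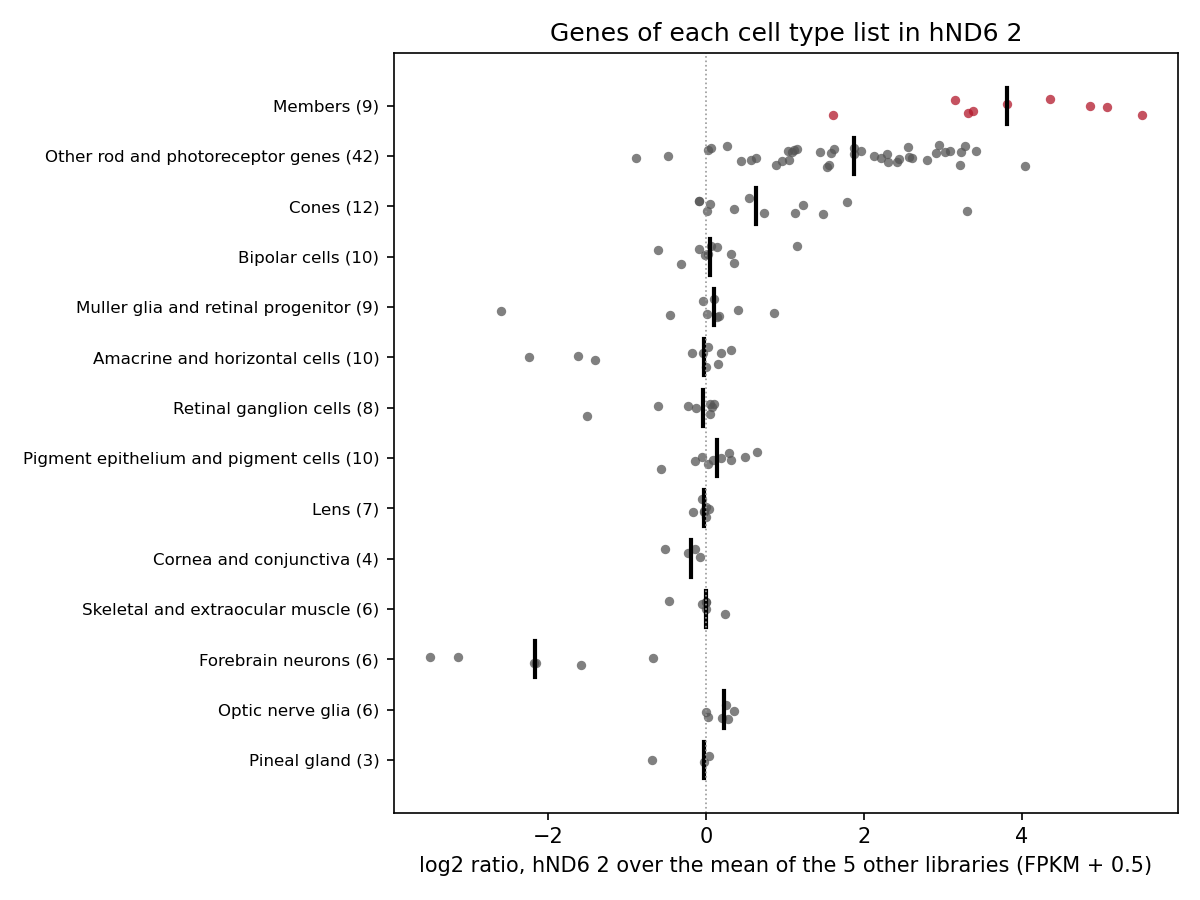
Log2 ratio of hND6 2 to the mean of the 5 other libraries, on FPKM + 0.5, for each gene (points) of the 9 members and of each cell type list; black bars are medians and numbers in brackets are genes. The 9 members (median 3.82) and the other photoreceptor genes (median 1.88) lie to the right, and the medians of bipolar (0.05), Müller (0.10) and ganglion cell genes (-0.04) lie near 0.

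Outside the lists, the 10 named genes with the profile most like the mean of the 9 were found by the root mean square difference of centred log2(FPKM + 0.5) over the 6 libraries, among 13314 genes. Since hND6 2 sets this profile, they are genes high in that library alone. The group held Rpgrip1 (difference 0.42), a protein of the photoreceptor cilium, at 4.46 FPKM in hND6 2 against 0.0506 to 0.202. It also held the nuclear receptor Esrrb (0.49), at 4.21 against 0.0762 to 0.375 FPKM, and Otx2os1 (0.55), an RNA opposite the retinal factor gene Otx2, at 9.22 against 0 to 1.33 FPKM. Pdzph1 (0.44) stood at 5.37 against 0.00723 to 0.335 FPKM. The ribosomal RNA gene n-R5-8s1 (0.54) stood at 18.1 against 0.223 to 1.78 FPKM. The other 5 were immunoglobulin variable genes, Igkv4-74, Igkv1-132, Ighv1-80, Igkv19-93 and Igkv12-38, with 20 to 52 reads in hND6 2 and at most 3 in any other library. Within the 9 members the same difference ran from 0.22 for Pde6b to 0.88 for Rom1.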

How the data were processed

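Total RNA of optic nerve was depleted of ribosomal RNA and made into stranded TruSeq libraries, per the labels' protocols. The authors deposited FPKM per gene, scaled by exon length and mapped reads per the labels, and a gene table with exon lengths. The 6 single-library tables equal the combined table. CASAVA 1.4, HTSeq, STAR and Trim Galore stand in the submitters' processing notes, with the builds mm10 and GRCm38. Their settings were not given in the sources used here.

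Multiplied by exon length, at least 99.991% of the FPKM values above 0 gave whole reads (within 0.1 read), so reads were recovered; intervals on them cover counting error only. Tests used R 4.3.3 and limma 3.58.1 (moderated test with trend, log2(FPKM + 0.5), mean of at least 0.5 FPKM, Benjamini-Hochberg over all genes tested, threshold 0.05, two-sided) and were tested on simulated data. Fold changes on this scale understate changes of low genes. Python 3.11.15 and matplotlib 3.10.9 made tables and figures. Motifs were searched on both strands in 250 upstream bases, cut to 237 for Crx and 231 for Prph2 to end before the gene. The shares over all promoters used the full 250.

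The members, the 13 gene lists and the naming rule were chosen with earlier results of these data known. The rule takes the 9 members, the 6 listed photoreceptor genes highest in hND6 2, the 2 most abundant tested genes of each other list, and the 10 genes most like the members; other genes were chosen after their values were seen. Alternatives were other pseudocounts (0.1 and 1), filters (none and 1 FPKM), scalings, robust variance, voom, the replicate block and leaving out each library. The 4-fold rule and its alternatives were chosen after seeing the data.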

Additional observations from a re-analysis of the deposited data

How the results depend on the processing

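None of the 9 genes passed the threshold in hND6 against mCherry under any of the 15 alternatives run. Without hND6 2, none passed under the alternatives that kept hND6 1 and 3. Only 7 of the 9 were tested with a filter of 1 FPKM. With hND6 2 left out of the filter 4 were, since 5 average under 0.5 FPKM without it. A count of 0 says nothing about the 9 where 0 of all tested genes passed. Without hND6 2 that was so with a pseudocount of 0.1, with voom and with any mCherry library left out. At an unadjusted limma p under 0.05, Rom1 and Gnat1 lay without hND6 3, where 1345 of 16171 tested genes did. Rom1 did without hND6 2 and mCherry 1, where 1089 of 16157 did. The count over all genes, 7 in hND6 against mCherry, was 0 with no filter, 0 with voom on recovered reads and 0 with the replicate block, and 0 to 131 when a library was left out. It was 131 without mCherry 3, 3 without hND6 2, 2 without hND6 1, 1 without mCherry 1 and 0 without mCherry 2. The cause was not tested. The labels do not say whether same-numbered libraries shared more than a number. The correlations of their deviations were -0.42, 0.36 and -0.20 for numbers 1 to 3, and only hND6 2 correlated best with its own number. These values cannot settle whether the libraries were paired. The log2 fold change of Sag, 1.79, ran from -0.11 without hND6 2, a reversed direction, to 3.03 without hND6 3. Scaling to a constant sum (TPM) moved the median over all tested genes to -0.14 and that of the 9 genes to 1.39, with all 9 still higher. The median log2 ratio of hND6 2 to the mean of the 5 others, 3.82, was 4.98 with a pseudocount of 0.1, and 3.74 to 3.90 when another library was left out. Depth limits the lowest genes: Crx had 21 reads and Nrl 25 over the 5 other libraries.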

Other observations

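Library mCherry 1 was among the 2 libraries with the most photoreceptor reads after hND6 2. It also held the highest sum of the pigment list, at 24.9 FPKM, mostly from Ttr (9.73 FPKM), Rdh5 (8.01 FPKM) and Rgr. Best1, Pmel and Mlana of that list were not at their highest there. They stood at 0.443, 0.0928 and 0 FPKM in mCherry 1, against up to 0.630, 0.404 and 0.145 FPKM elsewhere. Rgr, a retinoid-binding opsin of pigment epithelium and Müller cells, stood at 0.230, 1.83 and 0.00995 FPKM in hND6 1 to 3 and at 4.70, 0 and 0 FPKM in mCherry 1 to 3. Otx2, a homeodomain factor of photoreceptors, pigment epithelium and choroid plexus, reached 0.908 FPKM in library hND6 2 and 0.865 FPKM in library mCherry 1, with at most 0.204 FPKM in the other 4. These genes were chosen after their values were seen, and no test was made.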
